A study of Mus musculus with 4 samples.

Results

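The clustered histone genes encode the histones that package newly copied DNA. They were taken as every gene whose symbol follows the mouse pattern H2ac, H2bc, H3c or H4c with a number, or H1f1 to H1f5. The rule found 64 genes among the 55416 features of the files: 5 linker histone H1 genes, 18 H2A genes, 17 H2B genes, 12 H3 genes and 12 H4 genes. By Ensembl identifier all 64 were found in the GENCODE M21 annotation of GRCm38, 54 of them on chromosome 13 and 10 on chromosome 3. The tissue was the femoral epiphysis, the end part of the thigh bone. It was taken from WT mice (wild type) aged 7, 8, 10 or 12 days, for which the labels name no treatment. Each age gave 1 library (D7, D8, D10 and D12). The labels do not say how many animals each library holds. A droplet kit that reads the 3' end of transcripts gave counts of unique molecular identifiers (UMIs), each standing for 1 captured molecule.

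Most mRNAs end in a poly(A) tail. The mRNAs of clustered histone genes are made mainly while DNA is copied in S phase, and they normally end just after a short RNA hairpin, the stem-loop, which is held by the stem-loop binding protein SLBP. When a cell leaves S phase these mRNAs are degraded, and some members also give longer mRNAs with a poly(A) tail, a form known from cells that have stopped dividing. A 3' kit primes on poly(A), so the values below are levels of captured RNA and not of all histone mRNA. Core histones H2A, H2B, H3 and H4 form the particle around which DNA winds, and H1 sits on the DNA between particles.

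The stem-loop was searched in the annotated transcripts as a stem of 6 bases that begins with GG, a loop of 4 bases and the pairing stem. It was found in 42 of the 64 members, in 8 forms. A stem-loop past the end of an annotated transcript could not be found in this way. The sites of 6 members are shown: H1f2, H2ac6 and H2bc6 missed the threshold in the comparison of cycling cells below, and H2ac8, H3c3 and H4c4 passed it. Capitals mark both arms of the stem, with 5 bases on either side.
H1f2: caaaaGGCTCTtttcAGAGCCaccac
H2ac6: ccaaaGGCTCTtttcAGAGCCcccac
H2bc6: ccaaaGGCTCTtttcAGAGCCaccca
H2ac8: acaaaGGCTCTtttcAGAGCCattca
H3c3: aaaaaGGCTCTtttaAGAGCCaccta
H4c4: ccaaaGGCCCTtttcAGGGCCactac
The first 4 of these carry the same stem and loop, a form found in 24 members, while H3c3 differs in the loop and H4c4 in the stem. The annotated transcript went on after the stem-loop for 840 bases in H1f2, 2010 bases in H2ac6, 1861 bases in H2bc6 and 770 bases in H4c4. It ended 151 bases after the stem-loop in H2ac8 and 74 bases after it in H3c3.

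After removal of cells with fewer than 500 genes, fewer than 1000 UMIs or over 15% mitochondrial UMIs, 11309, 11464, 10028 and 16254 cells remained on days 7, 8, 10 and 12, with median depths of 3103, 3168.5, 7706.5 and 6563.5 UMIs. Between 72 and 282 cell barcodes occurred in both of any pair of libraries. Cells were assigned to a class when they carried UMIs of at least 3 of its 8 marker genes and at least 2 more markers than for any other class. The chondrocyte class, the cells that make cartilage, took 10904, 9495, 977 and 5762 cells. Levels are given as CPM, the UMIs of a gene scaled to a total of 1000000 UMIs in the same group of cells. Since the kit counts 3' ends and captures members unequally, CPM are compared between groups of cells for 1 gene and not between genes. Each day is 1 library, so intervals cover counting error only and no test between days was possible.

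The members were unevenly captured. They drew 358136 UMIs in all, and H2bc4 (141454 UMIs) and H1f2 (62661 UMIs) held 57.0% of them. Their share was 73.8% on day 7, 70.6% on day 8, 29.7% on day 10 and 47.2% on day 12. 35 members had at least 1000 UMIs, 6 had fewer than 20, and H2ac18, H2bc18 and H3c14 had none. H2ac18 could not be told from H2ac19, because all 90-base windows of the last 500 bases of their transcripts are identical. In 25 members over 50% of such windows also occur in another member, among them H2ac4, H2ac7, H2ac10, H2ac24, H2bc12, H2bc13, H2bc24, H3c10 and H4c18, so the split of UMIs among these depends on how the authors' counting treated shared reads. H2bc6 and H1f4 overlap by 496 bases on the same strand. The members without UMIs also overlap other annotated genes on their own strand. H2ac18 and H3c14 share 529 and 1825 bases with Gm20634, and H2bc18 shares 381 bases with Gm42743. In all, 6 members overlap another gene on the same strand, and the effect on their counts was not tested.

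The first comparison asked how histone mRNA differs between dividing cells and the rest. Cells with UMIs of at least 3 of Mki67, Top2a, Cdk1 and Ccnb2, genes high in late S, G2 and M phase, numbered 476, 996, 2319 and 3063, and are called cycling. Another 319, 526, 1523 and 1558 cells carried exactly 2 of these genes and fell just outside the gate, and 203, 412, 803 and 1223 of the cycling cells carried exactly 3. Of 58 members that passed the filter on low counts, 50 were higher in cycling cells and 0 were lower, by edgeR's quasi-likelihood test on sums per library with the library as a block and Benjamini-Hochberg adjustment. Of all 19383 genes tested, 15.4% were called higher and 15.8% lower. The median log2 fold change was 2.84 over the members and -0.03 over all genes. Called higher were 4 of 5 H1, 14 of 16 H2A, 11 of 14 H2B, 9 of 11 H3 and 12 of 12 H4 members. Cycling cells were also deeper, with a median of 6038.5, 5390, 14434 and 13273 UMIs against 3037, 3074.5, 6313 and 5577. After every cell was thinned to 1000 UMIs 43 of 46 members were called higher, beside 1882 of all 13838 genes tested. Without the library block 25 of 58 were called higher, beside 600 of all 19383 genes. The p-values measure only the spread between these 4 libraries of different days.

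**Figure D1:**
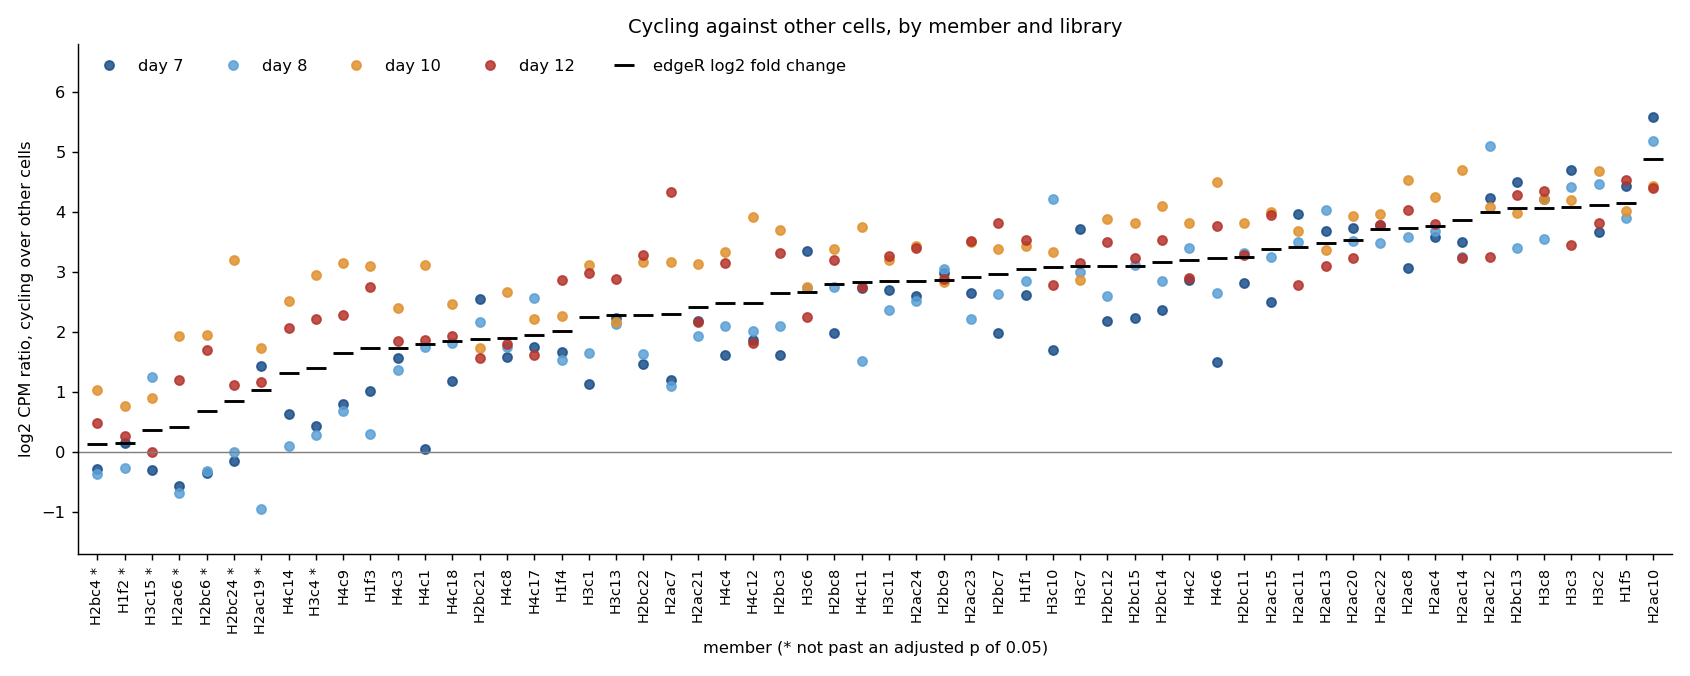
Log2 ratio of CPM in cycling over other cells (vertical axis, 1 UMI added) for the 58 members tested (horizontal axis, sorted by edgeR's log2 fold change, the black dash), with 1 coloured point per library. Points of all 4 libraries lie above 0 for 51 members, a count that was not made for all genes. At the left end H2bc4, H2ac6 and H2bc6 lie below 0 on days 7 and 8 and above 0 on days 10 and 12. Cells of all classes are pooled.

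H1f5 is a linker histone gene. Its level in cycling cells was 249, 159.7, 112 and 128 CPM on days 7, 8, 10 and 12, against 11.5, 10.7, 6.92 and 5.52 CPM in other cells. All 4 cycling values lay above all 4 other values, and the log2 fold change was 4.15 ± 0.15 (SE, adjusted p = 2.98e-06, edgeR's quasi-likelihood test, n = 4 libraries). H1f4, another linker histone gene, had 295, 181, 84.7 and 76.5 CPM against 92.5, 62.1, 17.5 and 10.4 CPM. It was higher in cycling cells of each library, although the values of different days overlap, with a log2 fold change of 2.01 ± 0.23 (edgeR adjusted p = 0.000643).

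The H2A gene H2ac10 had the largest log2 fold change of the members tested, 4.88 ± 0.26 (edgeR adjusted p = 1.08e-05), from 16.7, 18.8, 6.99 and 2.19 CPM in cycling cells and 0.330, 0.492, 0.311 and 0.0953 CPM in the others. H2ac8, the H2A member with the most UMIs, had 305, 289, 98.3 and 34.5 CPM against 36.2, 24.0, 4.23 and 2.09 CPM. The ratio was large in all 4 libraries (log2 fold change 3.73 ± 0.25, edgeR adjusted p = 4.34e-05), although both states were lower on days 10 and 12. H2ac4 rose by a log2 fold change of 3.76 ± 0.18.

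Among H2B genes, H2bc11 had 22.7, 17.2, 18.2 and 7.22 CPM in cycling cells and 3.25, 1.71, 1.28 and 0.736 CPM in other cells. The groups did not overlap (log2 fold change 3.25 ± 0.22, edgeR adjusted p = 3.74e-05). Among H3 genes, H3c3 had 13.5, 13.2, 22.0 and 8.10 CPM against 0.508, 0.596, 1.18 and 0.736 CPM, again without overlap (log2 fold change 4.08 ± 0.23, edgeR adjusted p = 1.74e-05). H3c2 and H3c8 differed by a log2 fold change of 4.12 ± 0.26 and 4.07 ± 0.25. Among H4 genes, H4c4 had 208, 195, 149 and 60.1 CPM against 68.0, 45.3, 14.8 and 6.76 CPM. It was higher in cycling cells of each library (log2 fold change 2.48 ± 0.31, edgeR adjusted p = 0.000922).

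A few members did not follow the rest. The 8 members that missed the threshold were H2bc4, H1f2, H3c15, H2ac6, H2bc6, H2bc24, H2ac19 and H3c4, with edgeR adjusted p-values from 0.0536 (H3c4) to 0.710 (H2bc4). H2bc4 had 1299, 721, 178 and 137 CPM in cycling cells and 1576, 929.5, 86.2 and 98.3 CPM in other cells. It was lower in cycling cells on days 7 and 8 and higher on days 10 and 12, so that the log2 fold change over the 4 libraries was 0.14 ± 0.25. H1f2 had 554, 289, 107 and 105 CPM against 498, 348, 62.6 and 87.0 CPM, and was higher in cycling cells of 3 of 4 libraries (log2 fold change 0.16 ± 0.17). H2ac6 had 66.9, 25.7, 27.1 and 27.7 CPM against 99.0, 41.5, 7.08 and 12.0 CPM. H2bc6 had 47.7, 20.4, 16.2 and 8.21 CPM against 61.0, 25.5, 4.19 and 2.53 CPM. Both showed the same change of sign between the early and the late libraries as H2bc4. These values pool cells of all classes, and the mix of classes differs between libraries. In chondrocytes alone H2bc4 and H2ac6 were lower in cycling cells on day 10 as well.

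The 2 linker histone genes H1f2 and H1f5 stood at opposite ends in cycling cells, so their promoters are shown, as the 120 bases before the start site from the RefSeq table of GRCm38.p6 promoters. The H1f2 stretch is chr13:23738687-23738806 on the plus strand and the H1f5 stretch chr13:21780626-21780745 on the minus strand. Capitals mark the H1 box (AAACACA), the CCAAT box and the TATA box (TATAAA). They were searched on both strands, and the CCAAT box on the other strand reads ATTGG.
H1f2: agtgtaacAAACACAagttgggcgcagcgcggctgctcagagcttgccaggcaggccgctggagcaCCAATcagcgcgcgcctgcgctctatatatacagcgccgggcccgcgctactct
H1f5: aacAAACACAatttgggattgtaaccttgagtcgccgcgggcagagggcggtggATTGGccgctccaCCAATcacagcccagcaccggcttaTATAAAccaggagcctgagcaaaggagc
Both hold AAACACA, starting at -112 in H1f2 and -117 in H1f5, and the CCAAT box, starting at -54 and -53, with a copy on the other strand at -66 in H1f5. TATAAA was found in H1f5, at -28, and not in the H1f2 stretch. Only this exact string was searched. The H1f2 stretch holds tatatata between its CCAAT box and the start site, so a TATA box of another form is not excluded. Within the full windows of 300 bases AAACACA was found in 4 of 5 H1 genes, 2 of 17 H2A genes, 2 of 14 H2B genes and none of the H3 or H4 genes, and in 7.18% of 32851 windows of the table. The octamer ATTTGCAT, the site of Oct factors, was found in 6 of 17 H2A and 7 of 14 H2B promoters, in 0 of the 5 H1, 10 H3 and 11 H4 promoters, and in 1.74% of all windows. CCAAT was in 49 of 57 members (37.4% of all windows) and TATAAA in 34 of 57 (13.6% of all windows). Promoters of 57 of the 64 members were in the table by symbol, and H2bc4, H2bc21, H2bc24, H2ac14, H3c1, H3c7 and H4c14 were not.

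The annotated 3' ends were then set beside the difference in cycling cells, as a description across genes. Among 40 tested members with a stem-loop, the number of bases after it in the longest transcript and the log2 fold change had a Spearman rho of -0.49. All points share the same libraries and cells, no p is given, and members with short 3' ends or similar sequence may be counted unequally, which was not tested. The 25 members whose transcripts ended within 200 bases after the stem-loop had a median log2 fold change of 2.97 (1.03 to 4.12) and 24 of them were called higher. The 15 with longer annotated ends had a median of 1.73 (0.16 to 3.09) and 10 were called higher. The limit of 200 bases was set after the lengths were seen. No such stem-loop was found in the annotated transcripts of 18 tested members, of which 16 were called higher. H2bc4, with an annotated transcript of 1156 bases, and H2bc24 were the 2 that missed the threshold. Other transcripts without a stem-loop were short, such as 312 bases in H4c12, 381 in H2bc13 and 411 in H3c10. A stem-loop past their annotated ends could not be found, so these members cannot be said to lack it.

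**Figure D2:**
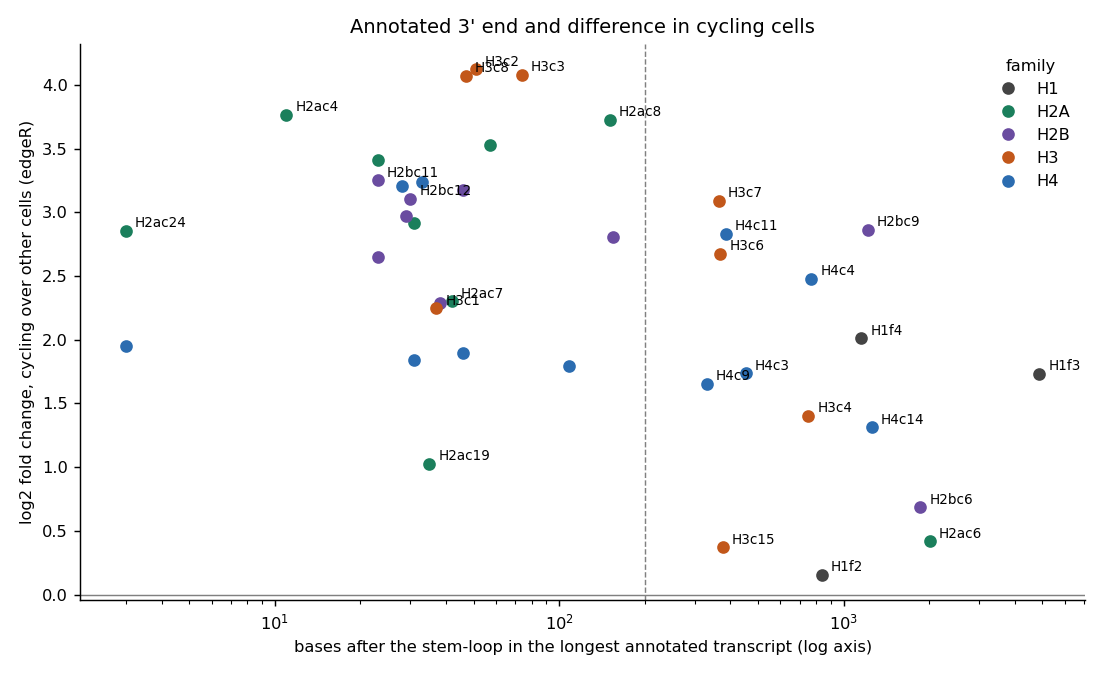
Bases after the stem-loop in the longest annotated transcript (horizontal log axis) against edgeR's log2 fold change of cycling over other cells (vertical axis) for 40 members, coloured by family. The dashed line marks 200 bases. H1f2, H2ac6, H2bc6 and H3c15 lie at the lower right, while H2bc9 and H3c7 have long ends and a log2 fold change of 2.86 and 3.09.

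The same comparison within the chondrocyte class kept the marker-gated class the same in both states, with 417, 718, 109 and 601 cycling chondrocytes. Of 46 members tested, 37 were higher in cycling chondrocytes and 1, H2ac6, was lower, by edgeR's quasi-likelihood test with the library as a block. Of all 15258 genes tested, 14.7% were called higher and 14.7% lower. The median log2 fold change of the members was 2.01. H1f5 differed by 4.19 ± 0.14, H2ac8 by 3.19 ± 0.13 and H4c4 by 1.87 ± 0.13 on the log2 scale (edgeR adjusted p = 2.12e-07, 4.07e-07 and 1.12e-05). H1f2 (0.00 ± 0.09) and H2bc4 (-0.13 ± 0.12) missed the threshold, with edgeR adjusted p-values of 1.00 and 0.475. The call of H2ac6 (-0.47 ± 0.15, edgeR adjusted p = 0.0425) was lost without the library of day 7, 8 or 10 (edgeR adjusted p from 0.0741 to 0.204) and turned to a log2 fold change of 0.078 when cells were thinned to 1000 UMIs. Without the block 5 of 46 members were called higher, beside 592 of all 15258 genes. After thinning 11 members passed the filter and 6 were called higher, beside 912 of all 8050 genes tested.

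The next comparison set cells with S-phase genes alone against cells with the cycling gate alone. It does not separate the phases, since cells in both gates entered neither side. Cells with UMIs of at least 3 of 8 S-phase genes (Mcm5, Mcm3, Cdc6, Gins2, Dtl, Uhrf1, Clspn and E2f8) but outside the cycling gate numbered 149, 232, 574 and 863. Cells with the cycling gate alone numbered 312, 637, 719 and 906, and those with both 164, 359, 1600 and 2157. Of 46 members tested, 0 were higher and 37 lower in the S-gate cells than in the cells with the cycling gate alone, by edgeR's quasi-likelihood test. Of all 13770 genes tested, 1.26% were called higher and 3.13% lower, and the median log2 fold change was -1.93 over the members and 0.00 over all genes. Median depth was 5333, 5404, 13666 and 10229 UMIs in S-gate cells and 5243, 4305, 8440 and 7583 UMIs in cells with the cycling gate alone. After thinning 11 members passed the filter and 9 were called lower, beside 389 of all 7716 genes tested.

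H4c4 had 55.9, 62.2, 20.9 and 9.69 CPM in S-gate cells and 228, 219, 102 and 39.4 CPM in cells with the cycling gate alone. The second state was higher on every day (log2 fold change -2.17 ± 0.14, edgeR adjusted p = 8.21e-05). H2ac8 had 84.8, 58.2, 8.01 and 5.47 CPM against 299, 266, 57.5 and 22.5 CPM (log2 fold change -2.34 ± 0.20, edgeR adjusted p = 0.00043). H2bc4 and H1f2, which missed the threshold between cycling and other cells, were lower here by a log2 fold change of -1.17 ± 0.12 and -1.23 ± 0.17 (edgeR adjusted p = 0.000843 and 0.00677). H2bc4 had 766, 561, 118 and 90.4 CPM against 1685, 937, 275 and 198 CPM. Calls fell from 37 to 18 without the day-10 library, beside 343 of all 11875 genes called lower. They fell to 16 without the day-12 library, beside 201 of 11884 genes. Without the block none passed an adjusted p of 0.05, while 26 members had an unadjusted p under 0.05.

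Summed over all members, cells in neither gate had 2724, 1652, 251 and 257 CPM on days 7, 8, 10 and 12. S-gate cells had 1760, 1305, 328 and 279 CPM, cells with both gates 2996, 2138, 1389 and 843 CPM, and cells with the cycling gate alone 4411, 2676, 1141 and 686 CPM. Cells with both gates lay below cells with the cycling gate alone on days 7 and 8 and above them on days 10 and 12. Without H2bc4 and H1f2, left out after their values were seen, S-gate cells had 637, 515, 158 and 125 CPM and cells with both gates 1820, 1406, 1133 and 632 CPM. On that sum the S-gate cells lay nearer to the cells in neither gate, at 624, 355, 106 and 68.3 CPM, than to the cells with both gates in every library.

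**Figure D3:**
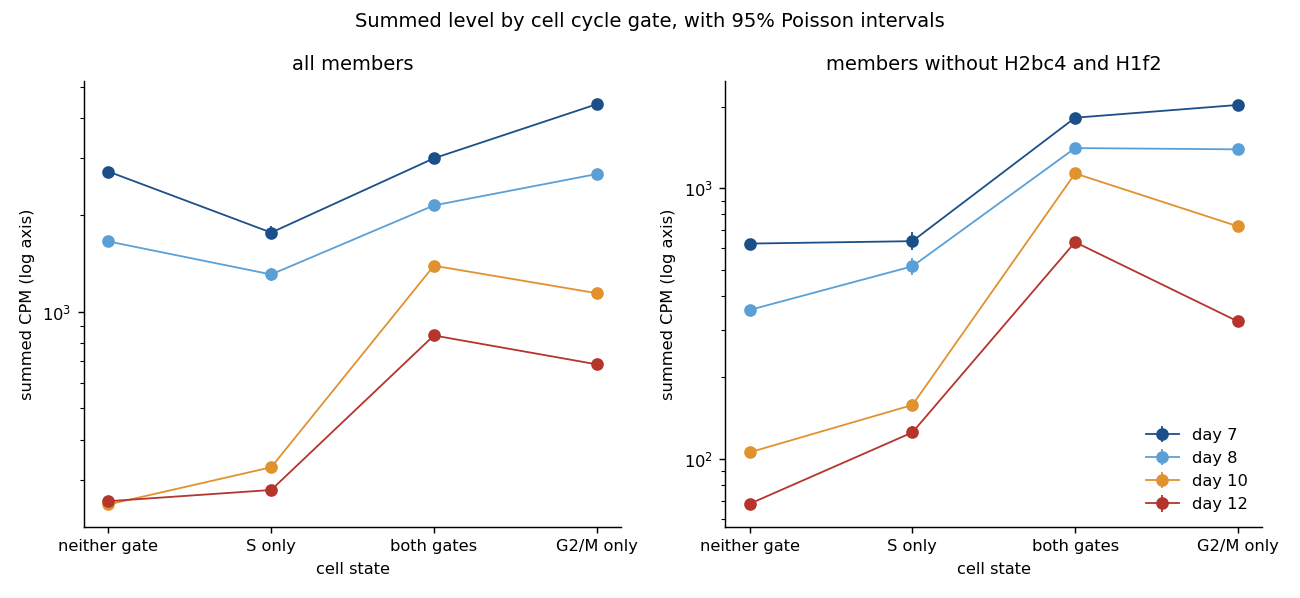
Summed CPM (vertical log axis, 95% Poisson intervals) in cells with neither gate, the S gate alone, both gates and the cycling gate alone, with 1 coloured line per library, for all members (left) and without H2bc4 and H1f2 (right). In the right panel both states with the cycling gate lie above both others in each library.

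Genes that act on histones and genes of the cell cycle gave a background for these differences. Of all genes tested, 15.4% were called higher in cycling cells and 15.8% lower. Of 10 histone genes on the replication-independent list, 8 were higher in cycling cells and 0 lower (median log2 fold change 0.91). Among them H2az1, an H2A variant, rose by 2.33 ± 0.17, and H3f3a and H3f3b, which encode H3.3, rose by 0.72 ± 0.15 and 0.60 ± 0.16. Of 17 genes of histone mRNA transcription and 3' processing, 11 were higher and 0 lower. Slbp rose by 1.67 ± 0.19 and was also higher in S-gate cells than in cells with the cycling gate alone, by 0.64 ± 0.12 (edgeR adjusted p = 0.0214). Casp8ap2, needed for histone transcription, was likewise higher in S-gate cells by 0.87 ± 0.12. Of 16 chaperones and import genes, 13 were higher in cycling cells, among them Nap1l1 (1.12 ± 0.12). Of 23 S-phase genes tested, 23 were higher in cycling cells and 18 higher in S-gate cells, but this list shares genes with the S gate. Of 16 genes of G2 and M phase, 16 were higher in cycling cells. The cycling gate itself rests on genes high in these phases, so this count is not an independent result.

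Days were compared within chondrocytes, because the mix of cells differed between libraries. Of 55 members with at least 20 UMIs on days 7 and 12, 51 were at least 1.5-fold lower on day 12 and 0 were 1.5-fold higher, with a median log2 ratio of -2.39. Of all 19559 genes with at least 20 UMIs, 27.4% were lower by that measure and 34.8% higher, with a median of 0.20. All 5 H1, 13 H2A and 12 H4 members counted were lower, with 12 of 14 H2B and 9 of 11 H3 members. The summed level was 2893, 2010, 432 and 359.5 CPM on days 7, 8, 10 and 12, and without H2bc4 and H1f2 it was 740.3, 544, 135 and 124 CPM.

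The drop lay mostly between day 8 and day 10. From day 7 to day 8, 15 of 54 members were 1.5-fold lower and 2 higher, beside 5.74% and 13.8% of all genes, and from day 10 to day 12, 28 of 48 were lower and 4 higher, beside 15.9% and 12.9%. From day 8 to day 10, 39 of 50 were lower and 4 higher, beside 25.1% and 25.8% of all genes. In 46 of 55 members both early values lay above both late values, a count that was not made for all genes.

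**Figure D4:**
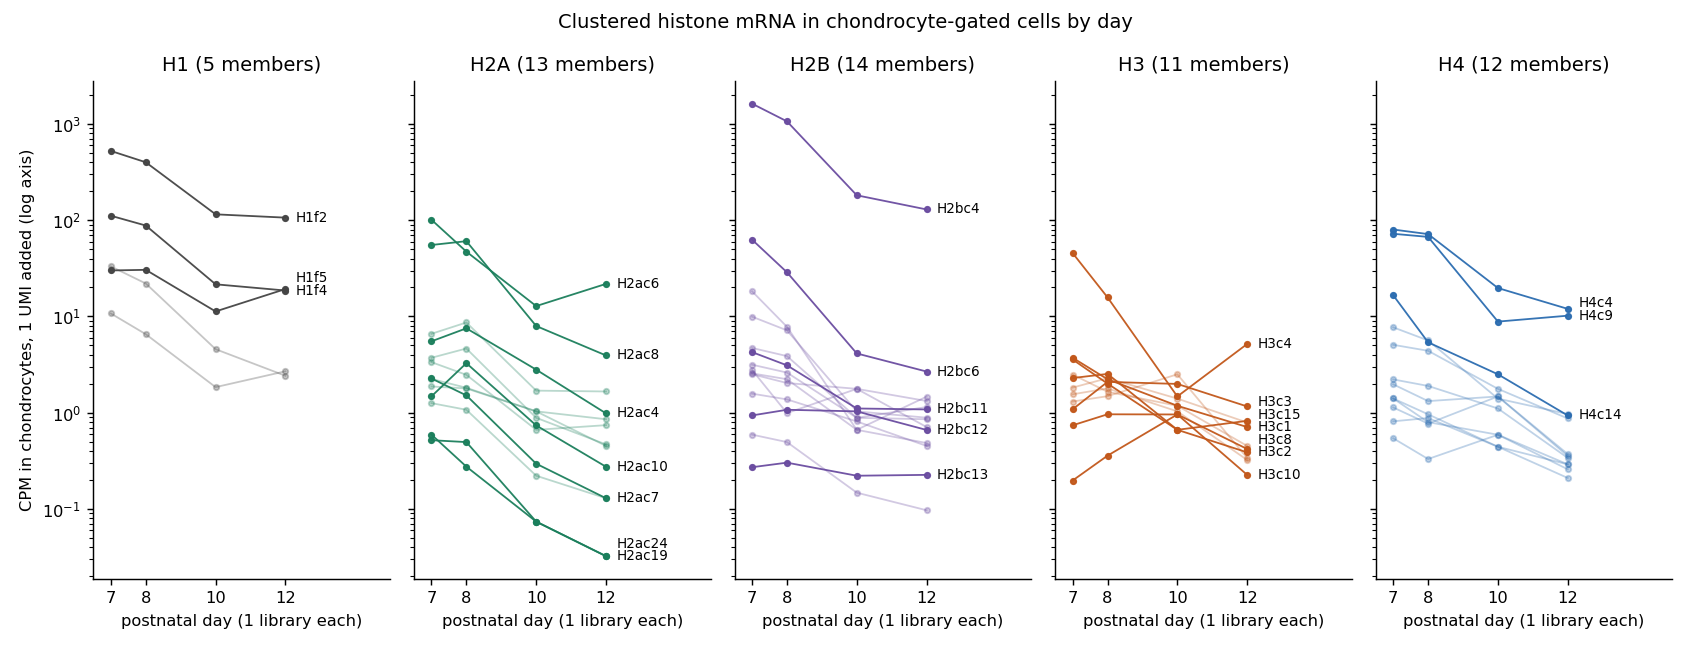
CPM in chondrocyte-gated cells with 1 UMI added (vertical log axis) by postnatal day (horizontal axis) for the 55 members with at least 20 UMIs on days 7 and 12, in a panel per family, with named members labelled. H2bc4 goes from 1628 to 129 CPM, H1f5 from 30.0 to 19.2 CPM, and H3c3 from 1.06 to 1.14 CPM.

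H2bc4 had 1628, 1066, 182 and 129 CPM in chondrocytes of days 7, 8, 10 and 12 and was 12.6-fold lower on day 12 than on day 7. H1f2 had 525, 400.3, 115 and 106 CPM and was 4.93-fold lower. For both, the day-10 and day-12 values lay well below both early values. H2bc6 had the largest drop, from 62.8 and 28.7 CPM to 4.05 and 2.66 CPM, a log2 ratio of -4.55 (95% counting interval -4.80 to -4.34). H4c14 went from 16.6 to 0.918 CPM between days 7 and 12 (log2 ratio -4.15, interval -4.59 to -3.78), and H2ac7 from 2.24 to 0.113 CPM (-4.14, interval -5.67 to -3.21). H2ac19 and H2ac24 rested on 1 UMI each on day 12, with intervals of -10.50 to -2.51 and -10.31 to -2.29. H2ac8 went from 55.3 and 60.5 CPM to 7.88 and 3.91 CPM, and H4c4 from 80.0 and 71.7 CPM to 19.7 and 12.0 CPM.

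The smallest changes were in other members. H3c10, H3c3, H2bc13 and H2bc12 had log2 ratios of 0.20, 0.10, -0.26 and -0.50, with intervals that include 0. H3c3 had 1.06, 2.06, 1.91 and 1.14 CPM on the 4 days, with no order by day. H1f5 had 30.0, 30.5, 11.2 and 19.2 CPM, a log2 ratio of -0.64 (interval -0.76 to -0.53).

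The days were also compared within cycling chondrocytes and within chondrocytes in neither gate. Chondrocytes with the S gate alone were not compared by day. Among cycling chondrocytes 41 of 42 members were lower on day 12 than on day 7 and 0 higher, beside 18.0% and 39.6% of all genes. Among chondrocytes in neither gate 47 of 48 were lower and 1 higher, beside 26.9% and 33.6% of all genes. Over the same days the summed level of the S-phase list in chondrocytes was 564, 727, 917 and 881 CPM. Of all genes, 34.8% were 1.5-fold higher on day 12 than on day 7 and 27.4% lower. On the S-phase list 16 of 23 genes were higher by that measure and 1 lower. The G2 and M list had 373, 605, 486 and 594 CPM, with 10 of 16 higher and 0 lower. Replication-independent histones had 4163, 4176, 2942 and 3086 CPM, with 3 of 10 higher and 2 lower, not far from the shares of all genes. H3f3b had a log2 ratio of -1.72 and H2az1 of 0.77. Of the 17 histone processing genes 10 were higher and 0 lower, and Slbp had 75.5, 83.0, 84.2 and 82.9 CPM.

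Other measures moved with the day. The summed level of 16 dissociation stress genes in chondrocytes was 14816, 15170, 8160 and 5987 CPM. On day 12, 15 of 16 were 1.5-fold lower than on day 7, beside 27.4% of all genes. They were led by Fos with 4868, 4938, 3887 and 2417 CPM. Hemoglobin mRNA, abundant in red blood cells and their precursors, stood at 889, 3791, 24030 and 8786 CPM in the chondrocyte class. Col1a1, at 53522 CPM in tendon or ligament cells of day 8, stood at 2371, 5655, 32840 and 32917 CPM in the chondrocyte class. Median depth of these cells was 3091, 3172, 8624 and 7741 UMIs. RNAs without a poly(A) tail other than histones had 11.4, 9.03, 18.1 and 6.60 CPM. Day, library, stress genes, depth and RNA of other cells in the class cannot be told apart here. The part of each in the drop was not tested. Fewer transcripts per cell and fewer cells with transcripts cannot be told apart in summed levels either.

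As a share of cells, after thinning each cell to 1000 UMIs, 87.6%, 75.1%, 61.3% and 51.8% of cycling cells in D7, D8, D10 and D12 carried a UMI of any member, against 62.9%, 48.2%, 25.2% and 21.3% of other cells. By family, H2A was found in 41.0%, 36.2%, 22.7% and 13.5% of cycling cells and in 9.67%, 6.03%, 3.15% and 2.03% of others. H2B, which includes H2bc4, was found in 59.2%, 40.4%, 29.9% and 18.5% of cycling cells. Its share of other cells was 46.1% and 32.5% in D7 and D8 and 9.35% and 8.84% in D10 and D12. Without thinning, the share with any member was 84.6%, 74.4%, 68.1% and 59.3% of other cells.

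The last comparison set the marker-gated classes side by side. The chondrocyte label was checked with Col2a1 and Sox9, cartilage genes not in the gate. Col2a1 stood at 44462, 32173, 30627 and 48758 CPM in chondrocytes, and at 2030 to 3191 CPM in the 4 other classes with at least 50 cells on day 8. Sox9 stood at 985, 942, 799 and 648 CPM in chondrocytes and at 77.6 to 211.5 CPM in those classes.

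Blood-forming classes had the highest summed levels on days 10 and 12. Erythroid cells, the precursors of red blood cells, had 1850.5 and 1595 CPM, B-lineage cells 1318 and 1087 CPM, and granulocyte progenitors 924 and 1006 CPM. Chondrocytes of the same libraries had 432 and 359.5 CPM and tendon or ligament cells 153 and 134 CPM, the lowest of the classes with at least 50 cells. The order followed the share of cycling cells in part: 893 of 1818 erythroid cells on day 10 were cycling, against 42 of 616 tendon or ligament cells. Within each class, cycling cells had more: the sum over all members was higher in cycling cells in 27 of 27 pairs of class and library with at least 20 cells in each state. It was 1.22-fold higher in osteoclasts of day 10 and 6.15-fold higher in erythroid cells of day 10, the ends of the range, with a median of 2.73-fold, and counting intervals lay above 1-fold. In chondrocytes it was 1.47-fold, 1.57-fold, 1.45-fold and 2.14-fold higher on the 4 days. Without H2bc4 and H1f2, left out after they were seen to miss the threshold in cycling cells, the range was 2.01-fold in granulocyte progenitors of day 10 to 9.51-fold in neutrophils of day 12, with a median of 4.74-fold. All of those pairs come from the same 4 libraries and are not replicates.

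**Figure D5:**
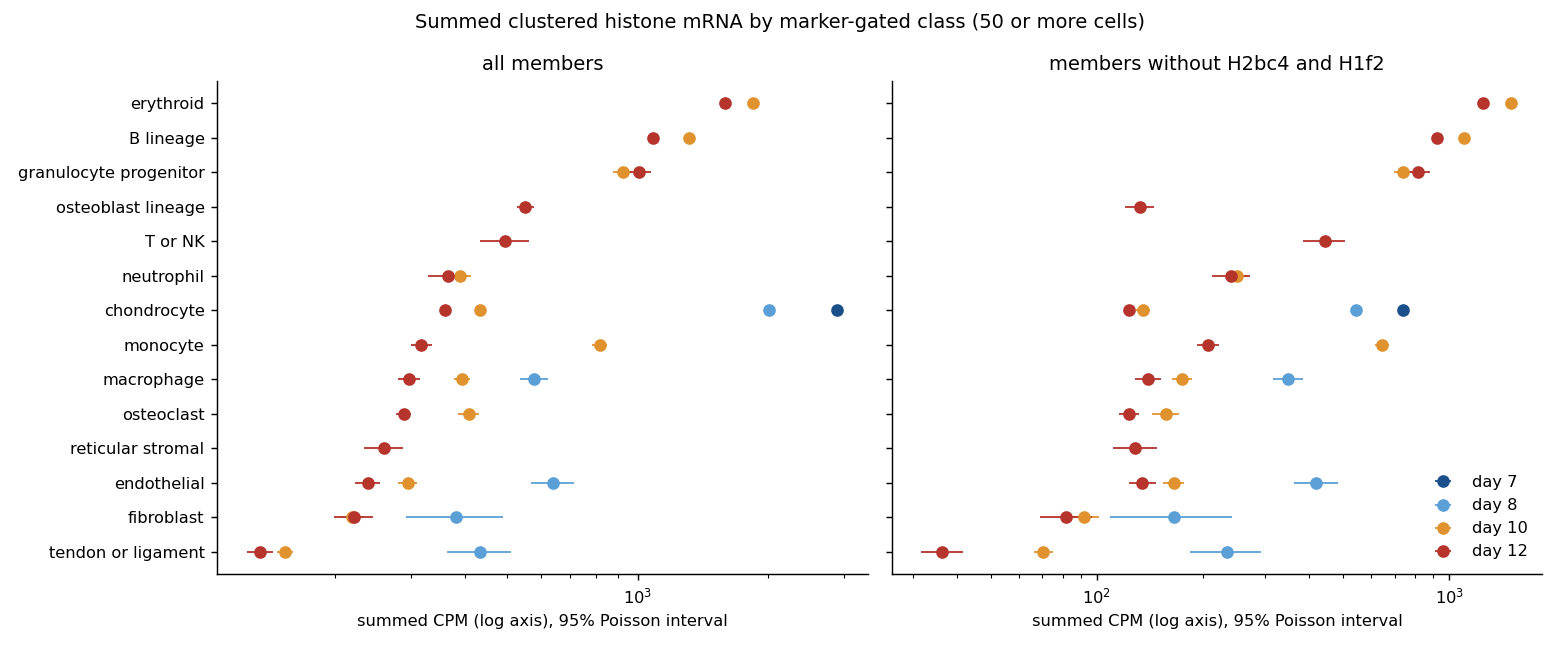
Summed CPM (horizontal log axis, 95% Poisson intervals) by marker-gated class (vertical axis, sorted by the day-12 level) for all members (left) and without H2bc4 and H1f2 (right), with 1 coloured point per library of at least 50 cells. Erythroid, B-lineage and granulocyte progenitor points lie to the right in both panels, and osteoblast-lineage cells move left when H2bc4 and H1f2 are left out.

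H1f5 stood at 153 and 256 CPM in erythroid cells of days 10 and 12, at 109.5 and 165 CPM in B-lineage cells, at 74.4 and 167 CPM in granulocyte progenitors and at 11.2 and 19.2 CPM in chondrocytes. It was higher on day 12 than on day 10 in all 4 of these classes. H2ac8 was lower on day 12 in each of them, at 134 and 120.1 CPM in erythroid cells and 101 and 45.9 CPM in B-lineage cells, with 59.2 and 35.6 CPM in granulocyte progenitors. H4c4 stood at 211 and 162 CPM in erythroid cells and at 132 and 78.7 CPM in B-lineage cells. H2ac6, which missed the threshold in cycling cells, was high in B-lineage cells (44.7 and 62.5 CPM) and granulocyte progenitors (32.8 and 55.7 CPM) and at 3.57 and 2.03 CPM in tendon or ligament cells.

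H2bc4 had 1066 CPM in chondrocytes of day 8, against 149 to 160.2 CPM in macrophages, tendon or ligament cells, fibroblasts and endothelial cells of that library. The counting intervals of these 4 values overlap, and the same classes held 2030 to 3191 CPM of Col2a1. The part of free RNA in these levels was not tested. On day 12 it was highest in osteoblast-lineage cells, the bone-making cells, at 220.3 CPM, followed by erythroid cells at 185 CPM, while chondrocytes and granulocyte progenitors both had 129 CPM, and it was lowest in T or NK cells at 27.4 CPM. H1f2 had 400.3 CPM in chondrocytes of day 8 against 47.4 to 79.3 CPM in the same 4 classes, and on day 12 it was again highest in osteoblast-lineage cells, at 198 CPM, before erythroid cells at 165 CPM. The sum over all members in osteoblast-lineage cells was 551 CPM, below only the 3 blood-forming classes above, but without these 2 genes the sum was 132 CPM, near the 124 CPM of chondrocytes.

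No class but the chondrocytes had 50 cells on day 7, so the days of other classes were compared from day 8. The summed level was 577, 393 and 297 CPM in macrophages on days 8, 10 and 12, 637, 295 and 238 CPM in endothelial cells, 381, 219 and 221 CPM in fibroblasts and 432, 153 and 134 CPM in tendon or ligament cells. In each of these 4 classes the day-8 value lay above both later ones, with intervals that do not overlap. Of the members with at least 20 UMIs, 1.5-fold lower on day 12 than on day 8 were 5 of 10 in macrophages, beside 12.5% of all genes, and 6 of 8 in endothelial cells, beside 15.9%. They were 2 of 4 in fibroblasts, beside 23.7%, and 4 of 5 in tendon or ligament cells, beside 37.8%. In these 4 classes 0 members were higher, beside 37.6%, 35.1%, 27.8% and 14.8% of all genes. These counts are small and changed with the count minimum and with thinning.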

How the data were processed

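The authors deposited UMI counts per gene and cell barcode for 4 libraries, whole numbers that were not normalized, as the files show. Per the submitters' processing notes the genome was GRCm39. No source used here gives the counting program or its annotation. At the digestion step the labels' protocol names bowel cancer tissue. The members, gates and lists were chosen with earlier results of these data known. No doublet caller was run; cells with markers of competing classes stayed ungated. Counts were summed per library and state and tested with edgeR 4.0.16 (filterByExpr, TMM, library block, quasi-likelihood test, Benjamini-Hochberg at 0.05), which was tested on simulated data; DESeq2 1.42.0 was an alternative. Day ratios had 1 UMI added, at least 20 UMIs and a 1.5-fold limit. CPM carry exact Poisson intervals and shares Clopper-Pearson intervals at 95%. Named genes were the 3 members of each family with the most UMIs, the 5 highest and 5 lowest in cycling cells and by day, and the 3 genes of each other list with the most UMIs; others named were chosen after their values were seen. Lists were replication-independent histones, histone processing, chaperones, S phase, G2 and M, RNAs without poly(A), dissociation stress and hemoglobin. Promoters are RefSeq's (GRCm38.p6) and transcripts GENCODE's (GRCm38), of another build than the counts, and were matched by name or identifier.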

Additional observations from a re-analysis of the deposited data

Results flagged for a closer look

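For 3 members the sign of the difference between cycling and other cells changed between the early and the late libraries, with counting intervals that exclude 0 in each library. H2bc4 had log2 ratios of -0.28 and -0.37 on days 7 and 8 and of 1.04 and 0.48 on days 10 and 12. H2ac6 had -0.56 and -0.68 and then 1.93 and 1.20. H2bc6 had -0.35 and -0.31 and then 1.95 and 1.70. The difference between the early and the late libraries was not tested, since each day is 1 library. Within chondrocytes the log2 ratios of H2bc4 were -0.11, -0.11, -0.29 and 0.48, those of H2ac6 -0.44, -0.54, -0.84 and 0.16, and those of H2bc6 -0.23, -0.51, 1.18 and 0.95.

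Of 66 combinations of named member and comparison, 3 had a library far from the other 3, and chance alone gives about 1 in 20. H3c8 had its lowest log2 ratio of cycling over other cells on day 8, at 3.55. H2ac7 had its highest ratio in chondrocytes on day 12, at 2.42. H3c3 had its lowest ratio of S-gate cells to cells with the cycling gate alone on day 10, at -3.58.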

How the results depend on the processing

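Each test was refitted with DESeq2, RLE size factors, no filter on low counts, looser cell filters, without the 6% of cells with the most UMIs, after thinning and without each library. In cycling cells 50 members were called. The count was 25 with no replicate block and 45 to 51 without 1 library. With library and class as a joint block it was 12 of 13 tested, beside 2097 of all 9952 genes called higher. In that fit classes of the same library entered as separate blocks, although they are not replicates. In chondrocytes, where 38 were called in either direction, the count was 5 with no replicate block and 6 of 11 tested after thinning to 1000 UMIs, and leaving out 1 library gave 30 to 40 higher or lower. The log2 fold change of H2ac6 there reversed from -0.47 to 0.078 after thinning. In S-gate cells 37 members were called lower; the count was 0 with no replicate block, 9 of 11 tested after thinning, and 16 to 32 without 1 library, with 18 without day 10 and 16 without day 12. The labels give no replicate numbers; the block is the library, which holds both states. The cause of these changes in count was not tested, apart from the fewer members tested after thinning.

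In the comparison of days 12 and 7 in chondrocytes, 33 of 36 members were called after thinning against 51 of 55, and H3c8 reversed to 0.37 with day 10 in place of day 12. In tendon or ligament cells the count of 4 of 5 became 9 with at least 10 UMIs and 2 after thinning. With day 10 it was 12 of 12, beside 43.3% of all genes lower. In fibroblasts the count of 2 of 4 became 1 with at least 50 UMIs and 0 after thinning. It was 1 of 3 in cells of neither gate, beside 24.2% of all genes, and 5 of 6 with day 10, beside 30.3%. In endothelial cells 6 of 8 became 14 with at least 10 UMIs and 2 after thinning. The count was 2 of 3 in neither gate, beside 18.8%, and 10 of 12 with day 10, beside 17.9%. In macrophages 5 of 10 became 15 with at least 10 UMIs and 1 after thinning. It was 2 of 3 in neither gate, beside 14.0%, and 9 of 17 with day 10, beside 15.1%. The number of members tested differs between settings, and shares of all genes were not made for other minima or thinning. Summed over the members, day 12 over day 7 stood at -2.70 (log2) in all cells, and at -1.69 without H2bc4 and H1f2, -2.58 without the cells with the most UMIs and -2.39 after thinning. In chondrocytes it was -3.01, and -2.58, -2.96 and -2.79. Shares of cells with any member rise with depth: thinned to 2000 UMIs they were 93.1%, 86.8%, 74.2% and 68.0% of cycling cells in D7, D8, D10 and D12 and 77.7%, 65.7%, 36.7% and 31.8% of others, and not thinned 98.1%, 95.5%, 95.3% and 93.6% against 84.6%, 74.4%, 68.1% and 59.3%. Leaving out H2bc4 and H1f2 and using day 8 as the first day in other classes were chosen after seeing the data.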
